A study of Mus musculus with 6 samples.

Results

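A set of 10 genes named for alternative activation was followed through 6 RNA-seq libraries of mouse eosinophils: Retnla, Mrc1, Cdh1, Tgm2, Tcfec, Tmem26, Dab2, Pdcd1lg2, Lipg and Sdc4. They are 10 of the 22548 gene symbols measured, and they were chosen by name after results of these libraries were known, as genes raised by IL-4. The eosinophils were grown from low-density bone marrow cells of wild-type BALB/c mice aged 4 to 8 weeks. Stem cell factor and FLT3 ligand (100 ng/ml each) were in the medium up to day 4 and 10 ng/ml IL-5 up to day 14, so every group, the untreated cells included, had been under IL-5. At day 14 the cells received IL-4 at 10 ng/ml, IL-33 at 10 ng/ml, or no cytokine, and RNA was taken 1 h or 4 h later. Each of the 6 groups is 1 library, and the labels do not say whether the marrow of several mice was pooled. No difference below therefore has a replicate check, and none is tested.

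Alternative activation is the programme that IL-4 and IL-13 start in macrophages, mainly through the IL-4 receptor and the transcription factor STAT6. Its usual markers are a secreted resistin-like protein, scavenging and lectin receptors, a ligand of the inhibitory receptor PD-1, and enzymes that remodel matrix and lipids. IL-33 signals through another receptor, ST2, and mainly through NF-kB and MAP kinases, and it is also known to make innate cells secrete type 2 cytokines. The comparison asked which of the 10 genes followed IL-4 and which also rose with IL-33.

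Levels are FPKM, the number of fragments scaled to transcript length and library size, summed over the transcripts of a gene. A change is log2((treated FPKM + 1) / (untreated FPKM + 1)), a scale on which low genes appear to change less than they do, and "higher" or "lower" means a change of at least 1 in size. A gene was compared where at least 1 of the 2 libraries had an FPKM of 1 or more. The IL-4 and IL-33 comparisons of a time share their untreated library. That library read 0.945 times (1 h) and 0.947 times (4 h) as high in the IL-33 tables as in the IL-4 tables, so the IL-33 levels below are divided by those factors to stand on the scale of the IL-4 tables, while each change was computed within its own table. Fold intervals cover 95% of the counting error alone, from read numbers estimated from the FPKM steps. They are not given for Dab2, whose 4 transcripts share reads. Ratios between the treated libraries of 4 h use the IL-4 library through which the genes were chosen, so they only describe the levels.

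The libraries were of eosinophils by their markers. All 11 eosinophil markers passed the minimum in every comparison, and their summed level ran from 62871 to 73819 FPKM over the 6 libraries. None was higher or lower with either cytokine, where 0.47% to 4.15% of all genes were higher and 0.351% to 1.38% lower. Macrophage and monocyte markers were also present, with a summed level of 1375 to 1864 FPKM, and 13 of 18 passed the minimum in every comparison. Those 13 include Csf1r (91.2 FPKM in untreated cells of 1 h), Ms4a7 (66.0), C1qc (32.4), C1qb (25.6) and C1qa (17.0). Of the other 5, Mertk, Cd163, Vsig4 and Timd4 were under 1 FPKM in every library and Marco was listed at 0 in all of them. Estimated from the FPKM steps, the treated libraries had 0.975 (IL-4 1 h), 1.24 (IL-4 4 h), 1.16 (IL-33 1 h) and 1.89 (IL-33 4 h) times the reads of their untreated library. In bulk libraries, fewer cells of a type and less RNA per cell cannot be told apart.

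At 4 h the 10 genes fell into 4 patterns. Retnla and Lipg were higher with IL-4 and not with IL-33. Mrc1, Tcfec, Tmem26, Dab2 and Sdc4 were higher with both cytokines. Tgm2 and Pdcd1lg2 were higher with IL-33 and did not pass the rule with IL-4 at 1 h or at 4 h, which goes against the name of the set. Cdh1 was past the rule with neither cytokine, and its changes had opposite signs.

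In counts, 7 of the 10 genes were higher at 4 h with IL-4, where 0.646% of all 10833 genes compared were. That comparison chose the genes, so nothing is read from the count. With IL-33 at 4 h, 7 of 10 were higher, where 4.15% of 10803 genes were, and their median change was 1.25 (-0.03 over all genes). That comparison uses the same untreated library as the one that chose the genes, so a low level in it raises both changes, and nothing is read from this count or median either. At 1 h none of the 8 genes compared was higher with IL-4 (0.47% of all genes were) and 1 of 8, Tgm2, was higher with IL-33 (2.36% of all genes were). The median change at 1 h was 0.17 with IL-4 and 0.23 with IL-33. None of the 10 was lower in any of the 4 comparisons, where 0.358% (IL-4 1 h), 0.351% (IL-4 4 h), 0.669% (IL-33 1 h) and 1.38% (IL-33 4 h) of all genes were.

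**Figure D1:**
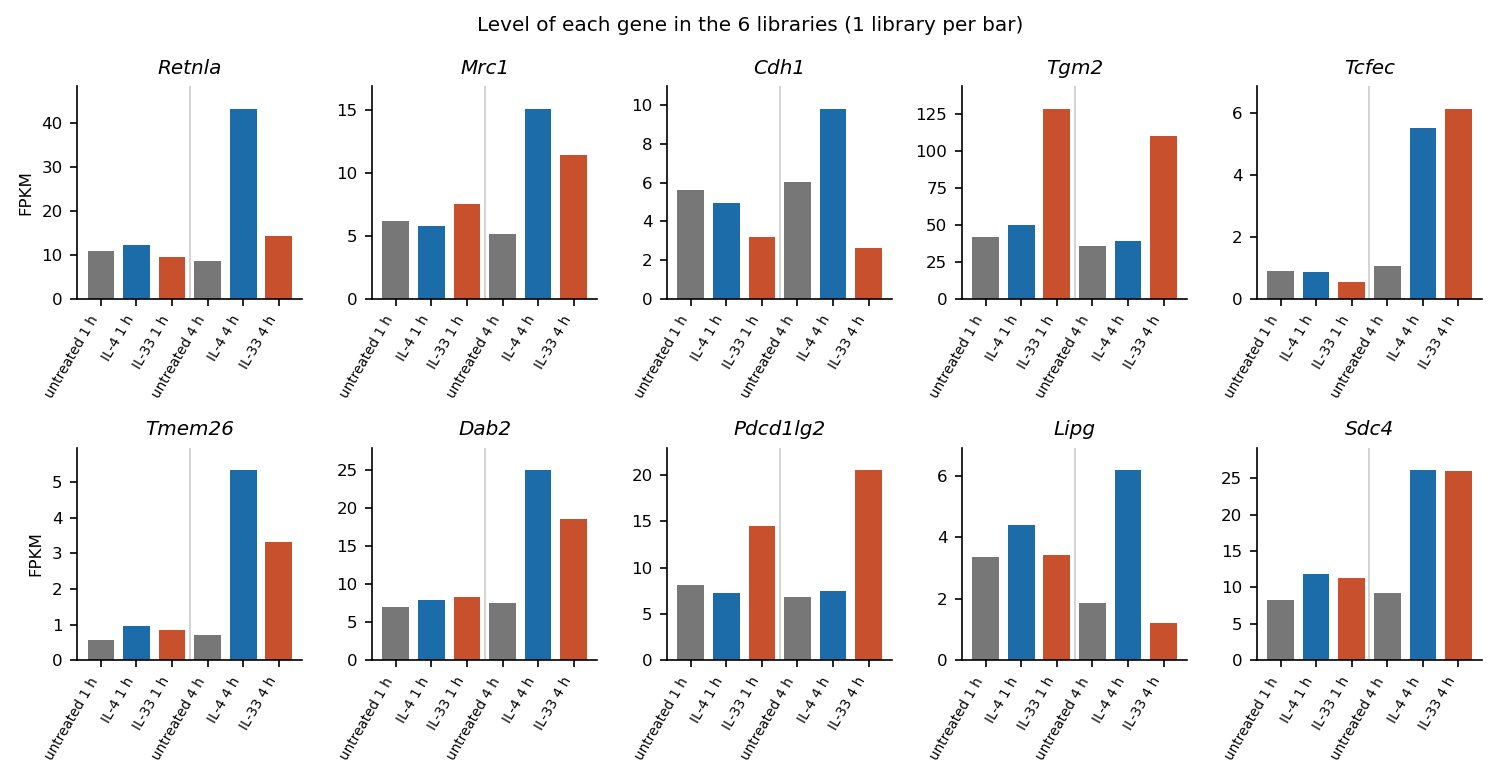
FPKM of each of the 10 genes in the 6 libraries, 1 bar per library and 1 panel per gene, with the IL-33 libraries put on the scale of the IL-4 tables; there are no error bars because each group is 1 library. Retnla and Lipg stand highest at 4 h of IL-4, Tgm2 and Pdcd1lg2 in the libraries given IL-33, and Sdc4 is as high at 4 h with either cytokine.

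Promoter sequences are shown to set the letters of the STAT6 and NF-kB motifs beside the patterns above. The 4 genes shown are those, of 6 with a promoter, whose sequence held a match to either motif. Retnla was higher with IL-4 alone, Tmem26 and Sdc4 with both cytokines, and Pdcd1lg2 with IL-33 alone. The sequences are the 250 bases before the gene start, from RefSeq on build GRCm38.p6, in the direction of the gene. Capitals mark matches to the STAT6 motif TTCNNNNGAA or to the NF-kB motif, searched on both strands. The windows are chr16:48842359-48842608 (plus strand) for Retnla, chr10:68723496-68723745 (plus strand) for Tmem26, chr19:29410669-29410918 (plus strand) for Pdcd1lg2 and chr2:164443189-164443438 (minus strand) for Sdc4.
Retnla: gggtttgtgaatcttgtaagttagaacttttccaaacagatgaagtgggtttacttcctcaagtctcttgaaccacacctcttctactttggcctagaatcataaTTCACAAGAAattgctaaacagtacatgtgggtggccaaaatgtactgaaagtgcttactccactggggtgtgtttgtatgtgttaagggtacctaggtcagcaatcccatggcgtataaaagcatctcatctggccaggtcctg
Tmem26: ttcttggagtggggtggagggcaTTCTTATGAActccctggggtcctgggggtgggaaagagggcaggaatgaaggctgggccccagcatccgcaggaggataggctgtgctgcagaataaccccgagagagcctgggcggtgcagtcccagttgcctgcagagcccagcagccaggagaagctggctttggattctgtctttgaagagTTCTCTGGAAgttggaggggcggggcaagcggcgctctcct
Pdcd1lg2: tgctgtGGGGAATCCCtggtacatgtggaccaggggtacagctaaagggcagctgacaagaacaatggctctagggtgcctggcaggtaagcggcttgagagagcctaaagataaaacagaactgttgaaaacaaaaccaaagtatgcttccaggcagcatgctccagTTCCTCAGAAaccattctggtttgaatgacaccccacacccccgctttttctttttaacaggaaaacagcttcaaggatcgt
Sdc4: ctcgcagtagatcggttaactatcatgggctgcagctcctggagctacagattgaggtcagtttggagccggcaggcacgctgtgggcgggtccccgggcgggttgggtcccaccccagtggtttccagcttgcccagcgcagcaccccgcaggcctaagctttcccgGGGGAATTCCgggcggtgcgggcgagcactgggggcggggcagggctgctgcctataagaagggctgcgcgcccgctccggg

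Counted from the gene start, the Retnla window has 1 STAT6 match, TTCACAAGAA, at -145 to -136. The Tmem26 window has 2, TTCTTATGAA at -227 to -218 and TTCTCTGGAA at -41 to -32. Pdcd1lg2 has a STAT6 match, TTCCTCAGAA, at -82 to -73 and an NF-kB match, GGGGAATCCC, at -244 to -235. The Sdc4 window has an NF-kB match, GGGGAATTCC, at -82 to -73 and no STAT6 match. Promoters were found for 6 of the 10 genes (7 windows, of which Dab2 has 2), and 3 of the 6 held the STAT6 motif and 2 the NF-kB motif. Of all 32851 promoter windows of this length, counted by window and not by gene, 5.85% held the STAT6 motif and 7.25% the NF-kB motif. The Mrc1 window and both Dab2 windows held neither. A shorter STAT motif, TTCNNNGAA, was also searched. It matched 1 Dab2 window at -72 to -64, and 7.02% of all windows held it. A match describes the letters only, and binding was not measured here.

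Retnla encodes a secreted resistin-like protein, RELM-alpha, a much used marker of alternatively activated macrophages (NM_020509, mm9 chr16:48842665-48844574). Its level was 10.7 FPKM in untreated cells and 12.2 with IL-4 at 1 h, then 8.64 in untreated cells and 43.15 with IL-4 at 4 h. With IL-33 it was 9.36 at 1 h and 14.2 at 4 h. The IL-4 library of 4 h thus stood above the other five, which lay between 8.64 and 14.2. The change with IL-4 at 4 h was 2.20, a 5.0-fold difference (interval 3.71 to 6.75), the largest change among the 10 genes. With IL-33 at 4 h the change was 0.65, below the rule, and the 1.64-fold difference (1.19 to 2.26) was above the counting error. With a 1.5-fold rule Retnla would count as higher with both cytokines. Set directly against each other, the IL-4 library of 4 h held 3.05 times (2.52 to 3.69) the Retnla of the IL-33 library.

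The other secreted product, endothelial lipase, is the phospholipase encoded by Lipg, which acts mainly on high-density lipoprotein. Lipg was at 3.36 FPKM in untreated cells of 1 h and 1.84 in those of 4 h, the largest difference between the untreated libraries among the 10 genes (-0.62, beside -0.28 to 0.14 for the other nine and a median of 0.10 over all genes, across tables). With IL-4 it was at 4.41 at 1 h and 6.18 at 4 h, and with IL-33 at 3.43 and 1.21. IL-4 thus gave the higher level at both times, and at 4 h the IL-33 library was the lowest of the 6. The change at 4 h was 1.34 with IL-4, 3.35-fold (2.70 to 4.2), and -0.35 with IL-33, 0.658-fold (0.504 to 0.862). Against the untreated library of 1 h in place of 4 h, the change with IL-4 at 4 h was 0.72 and the call was lost. Between the treated libraries of 4 h, Lipg was 5.09 times (4.17 to 6.25) as high with IL-4. That ratio uses the untreated library for its scale factor and the IL-4 library of 4 h through which the genes were chosen, so nothing further is read from it. The summed level of 10 endothelial and stromal markers ran from 2.36 to 10.4 FPKM, highest with IL-4 at 1 h (5.13 in the untreated library), where the stromal genes Col1a1 and Col1a2 were higher. None of the 10 reached 1 FPKM at 4 h, and the endothelial markers Cdh5, Kdr, Tek, Vwf and Emcn were under 1 FPKM in every library.

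**Figure D2:**
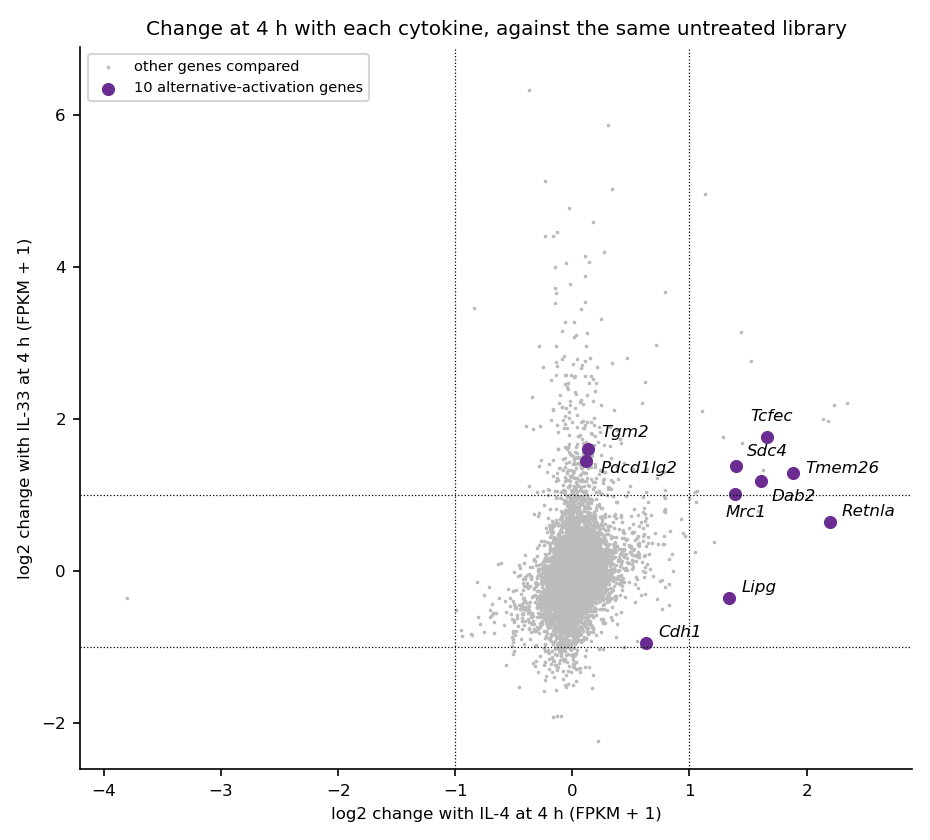
Change of every gene compared at 4 h with IL-4 (horizontal axis) and IL-33 (vertical axis), both log2 of FPKM + 1 against the same untreated library; small RNA and predicted symbols are left out, and dotted lines mark changes of 1 in size. Among the 10 genes (purple), Retnla and Lipg lie right of the line at 1 and below the upper line, Tgm2 and Pdcd1lg2 lie above it near 0 on the IL-4 axis, and Cdh1 and Lipg have a positive IL-4 change and a negative IL-33 change.

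Mrc1, Pdcd1lg2, Cdh1, Sdc4 and Tmem26 encode proteins of the cell surface or membrane. Mrc1, the mannose receptor CD206, takes up glycoproteins with mannose ends (NM_008625, mm9 chr2:14151041-14253650). Mrc1 was at 6.19 and 5.12 FPKM in untreated cells of 1 h and 4 h, at 5.74 and 15.1 with IL-4, and at 7.48 and 11.4 with IL-33. The 3 libraries of 1 h lay within 5.74 to 7.48, and at 4 h both treated libraries stood above all others. The change at 4 h was 1.39 with IL-4, 2.94-fold (2.64 to 3.29), and 1.02 with IL-33, 2.23-fold (2.01 to 2.49). The IL-33 change is the one closest inside the rule, and it was 0.79 against the untreated library of 1 h, where the call was lost. Mrc1 was 1.32 times (1.23 to 1.41) as high with IL-4 as with IL-33 at 4 h. The related receptors Mrc2, Pla2r1 and Ly75 were under 1 FPKM in every library.

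Pdcd1lg2 encodes PD-L2, a ligand of the inhibitory receptor PD-1 (NM_021396, mm9 chr19:29485409-29547417). Its level in untreated cells was 8.08 FPKM at 1 h and 6.81 at 4 h, and with IL-4 it was 7.22 and 7.46. With IL-33 it was 14.5 at 1 h and 20.5 at 4 h, so that the 2 IL-33 libraries stood above the other four. The change with IL-33 was 0.76 at 1 h, below the rule, and 1.45 at 4 h, 3.01-fold (2.53 to 3.59). With IL-4 at 4 h it was 0.12, 1.10-fold, with an interval of 0.883 to 1.35 that includes no difference. Among the genes of related ligands, Cd274, which encodes PD-L1, the other ligand of PD-1, went from 27.5 to 69.2 FPKM with IL-33 at 4 h (a change of 1.30), and Cd80, a ligand of CD28, from 15.1 to 39.7 (1.34), both within the IL-33 table. Both were also higher with IL-33 at 1 h, neither was past the rule with IL-4, and Cd86 was past it with neither cytokine. Pdcd1, which encodes PD-1 itself, was listed at 0 in every library.

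Cdh1 encodes E-cadherin, an adhesion molecule of epithelia that IL-4 is known to raise in macrophages (NM_009864, mm9 chr8:109127268-109194146). It was at 5.62 and 6.02 FPKM in untreated cells of 1 h and 4 h, at 4.93 and 9.83 with IL-4, and at 3.19 and 2.62 with IL-33. The untreated library of 4 h lay between the treated ones, with IL-4 above it and IL-33 below it. With IL-4 the change at 4 h was 0.63, 1.63-fold (1.45 to 1.85), the value closest outside the rule for IL-4, and past a 1.5-fold rule. With IL-33 it was -0.65 at 1 h, 0.568-fold (0.492 to 0.653), and -0.95 at 4 h, 0.434-fold (0.374 to 0.505). With a pseudocount of 0.1 in place of 1 the latter was -1.17 and past the rule. Between the treated libraries of 4 h, Cdh1 was 3.76 times (3.30 to 4.28) as high with IL-4 as with IL-33. Among the genes listed with cadherins and catenins, Cdh17, the liver-intestine cadherin, was lower with IL-33 at 4 h (from 6.16 to 1.41 FPKM, -1.57). So was Itgae, the integrin chain that binds E-cadherin (from 3.96 to 0.987, -1.32). Of 7 epithelial markers, 6 were under 1 FPKM in all 6 libraries: Epcam, Krt8, Krt19, Cldn4, Cldn7 and Esrp1. The remaining marker reached the minimum in each comparison and was past the rule in none. The summed level of the 7 ran from 1.2 to 2.51 FPKM.

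Sdc4 encodes syndecan-4, a heparan sulfate proteoglycan that acts as a co-receptor in adhesion (NM_011521, mm9 chr2:164249747-164268688). It was at 8.30 and 9.27 FPKM in untreated cells of 1 h and 4 h, at 11.9 and 26.1 with IL-4, and at 11.3 and 25.9 with IL-33. At each time the treated libraries were both above the untreated one and close to each other. The changes at 4 h were 1.4 with IL-4, 2.81-fold (2.48 to 3.19), and 1.39 with IL-33, 2.80-fold (2.48 to 3.16). The ratio of the treated levels at 4 h was 1.01, with a counting interval of 0.932 to 1.08. Of the other syndecans, Sdc1 and Sdc3 were compared at 4 h and were past the rule with neither cytokine. Sdc1 went from 2.34 to 1.09 FPKM with IL-4 (-0.68) and from 2.22 to 1.2 with IL-33 (-0.55). In untreated cells of 1 h Sdc1 was at 1.43. Sdc3 went from 8.49 to 7.34 FPKM with IL-4 (-0.19) and from 8.04 to 5.14 with IL-33 (-0.56).

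Tmem26 encodes a membrane protein of little known function that is used as a marker of beige fat cells (NM_177794, mm9 chr10:68186494-68245402). It was at 0.577 and 0.715 FPKM in untreated cells of 1 h and 4 h, at 0.953 and 5.34 with IL-4, and at 0.845 and 3.31 with IL-33. All libraries except those of 4 h with a cytokine were under 1 FPKM, so Tmem26 was left out of the counts at 1 h, where the fold was 1.65 (1.18 to 2.33) with IL-4 and 1.46 (1.05 to 2.06) with IL-33. At 4 h the change was 1.89 with IL-4, 7.47-fold (5.62 to 10.1), the largest fold among the 10 genes for IL-4, and 1.30 with IL-33, 4.63-fold (3.48 to 6.24). With a minimum of 5 FPKM the IL-33 pair was not compared and Tmem26 counted as higher with IL-4 alone. The IL-4 library of 4 h held 1.61 times (1.42 to 1.83) the level of the IL-33 library.

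**Figure D3:**
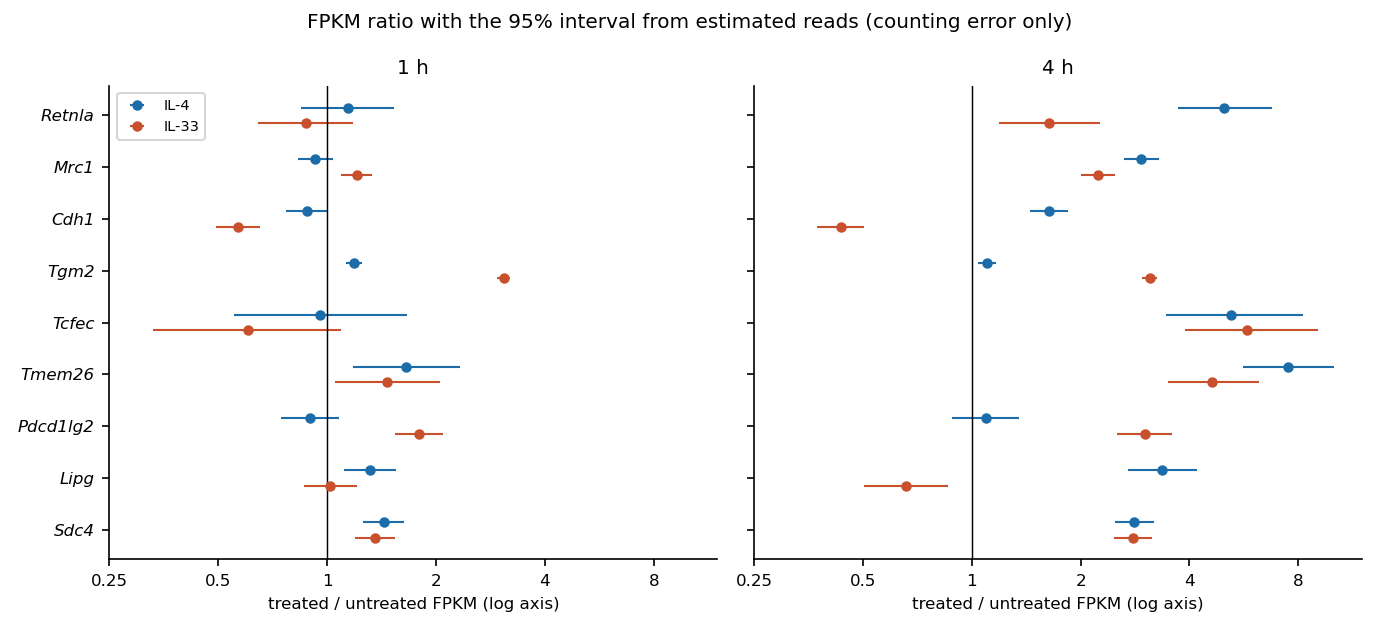
Fold of each gene against the untreated library of the same time and table, on a log axis, with 95% intervals for counting error only where the gene has 1 transcript (Dab2 is not drawn). At 4 h the intervals of IL-4 and IL-33 lie apart for Retnla, Mrc1, Cdh1, Tgm2, Pdcd1lg2 and Lipg, and they overlap for Tcfec, Tmem26 and Sdc4. Both folds divide by the same untreated reads, so overlap does not compare the treated libraries. For Tmem26 their ratio, IL-4 over IL-33, was 1.61 (1.42 to 1.83).

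Dab2 encodes an adaptor that brings lipoprotein receptors and integrins into clathrin-coated pits (4 transcripts, mm9 chr15:6249789-6390709). Summed over the transcripts, it was at 6.97 and 7.51 FPKM in untreated cells of 1 h and 4 h, at 7.95 and 25.0 with IL-4, and at 8.28 and 18.6 with IL-33. The 3 libraries of 1 h lay close together, and at 4 h both cytokines gave levels above all others. The change at 4 h was 1.61 with IL-4, 3.33-fold, and 1.2 with IL-33, 2.47-fold.

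By transcript of Dab2, NM_023118 held 56.9% of the level in untreated cells of 4 h, 72.6% with IL-4 and 75.7% with IL-33. NM_001008702 went from 0.00665 to 3.33 FPKM with IL-4 at 4 h and, within the IL-33 table, from 0.00630 to 3.83. NM_001037905 was at 3.22 in untreated cells and 3.53 with IL-4 at 4 h, and it was listed at 0 with IL-33 at 4 h. Short single reads are split among such overlapping transcripts by estimate, so these shares are less certain than the sum. With the highest transcript alone, the change at 4 h was 1.86 with IL-4 and 1.5 with IL-33, in the same order as the sum. Among the other genes of this endocytic route, Lrp1, a receptor that Dab2 binds, was not past the rule with IL-4 (from 3.35 to 1.6 FPKM, -0.75) or IL-33 (from 3.17 to 1.4, -0.80) at 4 h.

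**Figure D4:**
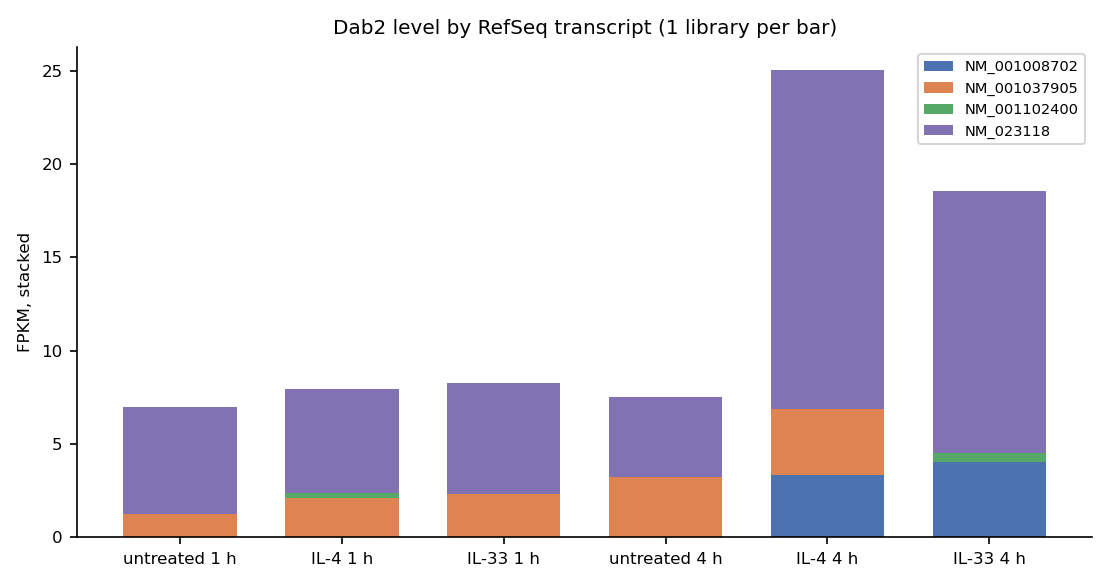
FPKM of the 4 Dab2 transcripts stacked in each of the 6 libraries, with the IL-33 libraries on the scale of the IL-4 tables. NM_023118 makes up most of the level in every library, and NM_001008702 appears in the treated libraries of 4 h.

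Tgm2 encodes transglutaminase 2, an enzyme that cross-links proteins (NM_009373, mm9 chr2:157942141-157972128). It was at 41.7 and 35.4 FPKM in untreated cells of 1 h and 4 h, at 49.5 and 39.0 with IL-4, and at 128 and 110 with IL-33. The libraries given IL-33 stood above the other four at both times. The change with IL-33 was 1.60 at 1 h, 3.08-fold (2.96 to 3.21), and 1.61 at 4 h, 3.10-fold (2.95 to 3.26). With IL-4 it was 0.24 at 1 h, 1.19-fold (1.13 to 1.25), and 0.14 at 4 h, 1.10-fold (1.04 to 1.17), both below the rule and above the counting error. At 4 h the level with IL-33 was 2.82 times (2.70 to 2.94) that with IL-4. Of the related genes, Tgm1, Tgm4 and F13a1 were compared, and none was higher or lower with either cytokine at 4 h.

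Tcfec encodes TFEC, a transcription factor of the MiT family found mainly in myeloid cells (NM_031198, mm9 chr6:16783381-16848441). It was at 0.903 and 1.06 FPKM in untreated cells of 1 h and 4 h, at 0.864 and 5.51 with IL-4, and at 0.546 and 6.13 with IL-33. The 2 treated libraries of 4 h stood well above the other four, which were near 1 FPKM or under it. With IL-4 the change at 4 h was 1.66, 5.2-fold (3.45 to 8.24), and 1.76 with IL-33, 5.79-fold (3.89 to 9.07). The level with IL-33 was 1.11 times that with IL-4, and the interval of 0.918 to 1.36 includes no difference. Of 3 other MiT genes, Mitf went from 4.76 to 11.0 FPKM (1.06) and Tcfe3 from 15.4 to 34.9 (1.14) with IL-33 at 4 h, and none was past the rule with IL-4.

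Over all 9 lists of relatives, 26 genes were compared at 4 h. With IL-4, 0 of 26 were higher and 0 were lower (0.646% and 0.351% of all genes were). With IL-33, 5 of 26 were higher (Mitf, Tcfe3, Cd274, Cd80 and the lysosomal lipase gene Lipa) and 2 were lower (Cdh17 and Itgae). Of all genes, 4.15% were higher and 1.38% lower in that comparison. Retnlg, the resistin-like gene next of kin to Retnla and abundant in granulocytes, was at 362 FPKM untreated and 343 with IL-4 at 4 h (-0.08), and within the IL-33 table went from 342 to 211 (-0.70).

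**Figure D5:**
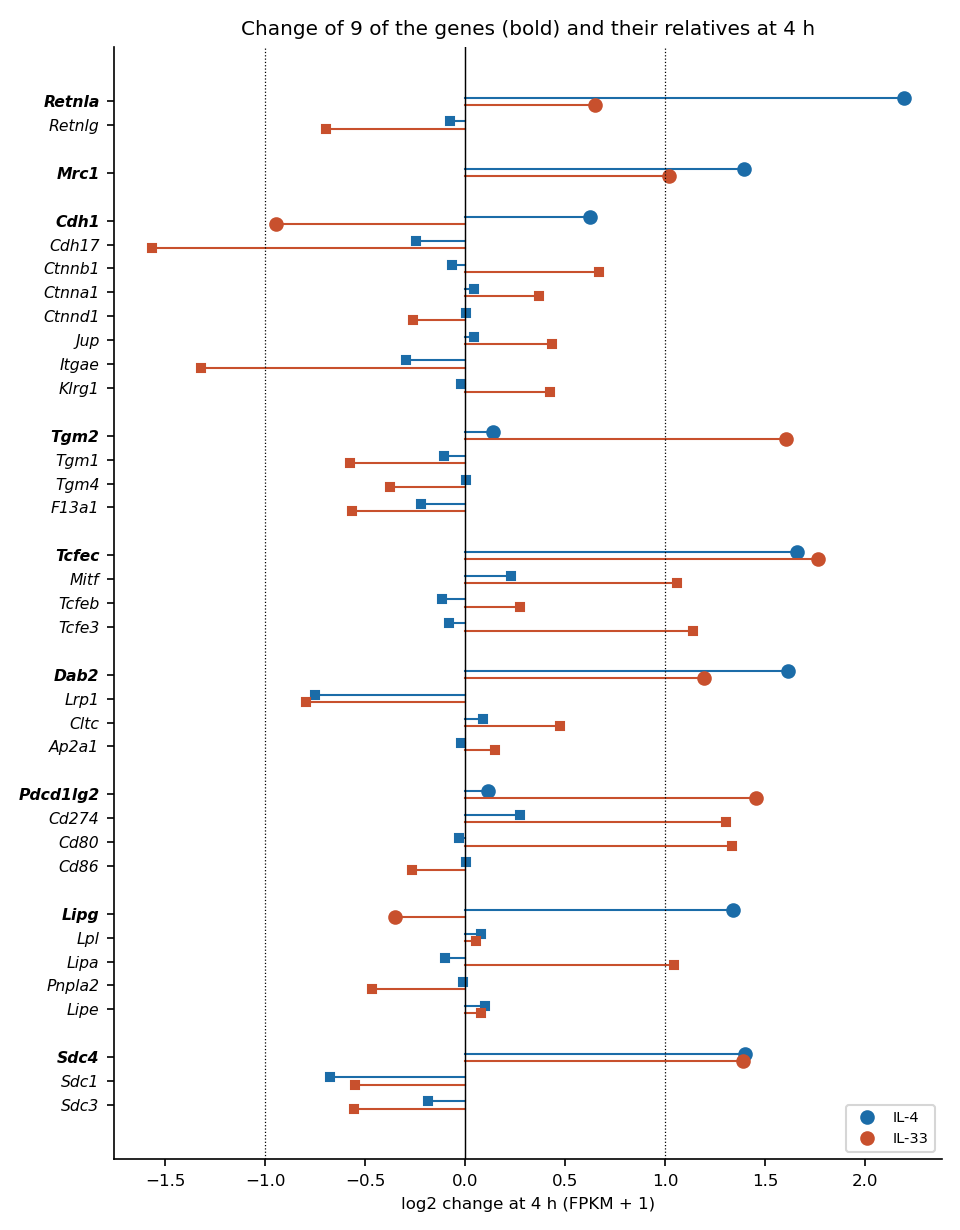
Change at 4 h, log2 of FPKM + 1, with IL-4 and with IL-33 for 9 of the 10 genes (Tmem26 has no list of relatives) and the relatives that were compared; dotted lines mark changes of 1 in size. With IL-4 none of the 26 relatives is past the lines, and with IL-33 5 are higher and 2 lower (4.15% and 1.38% of all genes are).

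Other genes were counted from a list of 45 named for alternative activation. That list was also chosen with earlier results of these data known, so nothing is read from its counts and medians. With IL-4 at 4 h, 12 of 40 compared were higher and none lower (0.646% and 0.351% of all genes were). Their median change was 0.59 beside 0.02 over all genes. The largest changes were those of Arg1, which encodes arginase 1 (from 1.31 to 10.8 FPKM, 2.35), the chemokine gene Ccl7 (from 26.9 to 130, 2.23) and Socs1, a feedback inhibitor of cytokine signals (from 4.11 to 21.5, 2.14). The chemokine gene Ccl2 (1.74), the arginine transporter gene Slc7a2 (1.63) and the transcription factor gene Egr2 (1.52) followed. With IL-33 at 4 h, 14 of 38 were higher and none lower (4.15% and 1.38% of all genes were), with a median of 0.31 beside -0.03. Arg1 was among them (from 1.24 to 9.43 FPKM, 2.22), with the serpin gene Serpina3g (3.15), Egr2 (2.76), the IL-1 receptor antagonist gene Il1rn (2.58), the STAT5 target Cish (2.49) and Ccl7 (from 25.4 to 120 FPKM, 2.19). The chitinase-like marker gene Chi3l3 was past the rule with neither cytokine (0.79 with IL-4 and -0.21 with IL-33). At 1 h, 5 of 37 were higher with IL-4 (0.47% of all genes were) and 5 of 37 with IL-33 (2.36%). The medians were 0.14 and 0.18.

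A list of 13 genes of the IL-4 receptor and of STAT6 signalling was read the same way. With IL-4, 0 of 12 at 1 h and 0 of 11 at 4 h were higher or lower. Of all genes, 0.47% were higher and 0.358% lower at 1 h, and 0.646% and 0.351% at 4 h. Nothing is read from these counts. Il4ra, the receptor's main chain, went from 8.82 to 9.52 FPKM with IL-4 at 4 h and from 8.35 to 12.9 with IL-33 (0.57), and Stat6 from 119 to 117 and from 112 to 116. With IL-33, 1 of 12 was higher at 1 h (2.36% of all genes were) and 4 of 11 at 4 h (4.15%). The latter were Il13, the shared chain gene Il2rg, the kinase gene Tyk2 and the phosphatase gene Ptpn1. Il13, whose product uses the IL-4 receptor chain and STAT6, went from 2.01 to 17.3 FPKM at 1 h and from 0.971 to 46.8 at 4 h with IL-33. The IL-13 receptor genes were low: in the IL-33 comparison of 4 h, Il13ra1 went from 0.646 to 0.731 FPKM and Il13ra2 from 0 to 0.0725. Both were under the minimum there and not compared. Il4 itself was at 87.4 FPKM untreated and 82.0 with IL-4 at 4 h, and within the IL-33 table went from 82.8 to 104 (0.33). The part of either cytokine in the genes that rose with IL-33 was not tested.

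Among 7609 other genes with a level of at least 5 FPKM in some library, those closest to the median course of Retnla and Lipg over the 4 changes were Gzma (distance 0.61), Gimap3 (0.85), Fcrls (0.91), Chi3l3 (1.05), Il6st (1.07) and Timm9 (1.09). Gzma, which encodes granzyme A, went from 2.19 to 6.36 FPKM with IL-4 at 4 h and from 2.07 to 3.01 with IL-33. Closest to the course of the 5 genes higher with both cytokines was Slc7a2 (0.16), then Gimap3 (0.57), Fchsd2 (0.58), Il6st (0.71), Myc (0.76) and C3 (0.84). Slc7a2 had changes of 0.12 and 1.63 with IL-4 at 1 h and 4 h, and of 0.07 and 1.34 with IL-33. Gimap3 and Il6st are near both courses. The distance is Euclidean over the 4 log2 changes and carries no test.

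Since many of the 10 genes are known from macrophages, the macrophage and monocyte markers were read beside them. With IL-4, 0 of 13 compared were higher or lower at either time. Of all genes, 0.47% were higher and 0.358% lower at 1 h, and 0.646% and 0.351% at 4 h, so nothing is read from this count. The summed level of the list at 4 h was 1375 FPKM with IL-4, beside 1487 in the untreated library. With IL-33 at 4 h, 2 of 13 were higher (4.15% of all genes were), and the summed level was 1864 FPKM. They were Csf1r (from 92.6 to 217 FPKM within its table) and Cd14 (from 44.6 to 207). The part of these cells in the levels at 4 h with IL-33 was not tested. Of 13 dendritic cell markers, summed at 222 to 272 FPKM, 8 were compared with IL-4 and 7 with IL-33, and none was past the rule. Zbtb46, Xcr1, Clec9a, Cd209a and Ciita were under 1 FPKM in every library. Of the mast cell and basophil markers, at 440 to 522 FPKM, and the neutrophil markers, at 6196 to 8133 FPKM, none was higher or lower either. Over the 4 comparisons, 0.47% to 4.15% of all genes were higher and 0.351% to 1.38% lower.

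In the authors' deposited list of 1593 genes, 9 of the 10 genes appear and Mrc1 does not. For IL-4 the authors' deposited list marks 5 of them at 1 h (Tgm2, Tmem26, Dab2, Lipg and Sdc4, at log2 changes of 0.25, 0.72, 0.19, 0.39 and 0.52) and 7 at 4 h. The authors' deposited list differs from the rule used here at 4 h by holding Cdh1 for IL-4 and lacking Mrc1. For IL-33 at 1 h the authors' deposited list marks 3, of which Tgm2 (1.62) is past the rule used here and Cdh1 (-0.82) and Pdcd1lg2 (0.84) are not. For IL-33 at 4 h the authors' deposited list marks 7, again with Cdh1 (at -1.2) and without Mrc1. Those marks compare the reads of 2 libraries, not the conditions.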

How the data were processed

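RNA of 6 libraries, 1 per group, was sequenced as single reads, per the labels' protocols. Reads were aligned with TopHat 1.4.1 to mm9 and transcripts measured by Cuffdiff 1.2.1 (per the submitters' processing notes), while read trimming and the RefSeq release are not given in the sources used here. Values used were FPKM per transcript, deposited by the authors in 4 tables, each pairing 1 treated with 1 untreated library and normalised on its own. The authors' deposited list gave log2 fold changes and marks.

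FPKM of 28702 transcripts were summed by symbol with Python 3.11.15 and pandas 2.3.3. Of the symbols, 232 lay at several loci. Changes used a pseudocount of 1, genes needed 1 FPKM in at least 1 library, and the rule of size was 1 on the log2 scale. Reads were estimated as FPKM times length less 200 bases, with GENCODE vM21 lengths, and 61.5% to 64.8% of low transcripts came within 0.1 of a whole read, so these reads, depths and exact binomial (scipy 1.17.1) fold intervals are approximate.

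The 10 genes, the lists and the rule for named genes were chosen with earlier results of these data known. That rule named the 10 genes, their relatives at 1 FPKM or more, up to 6 examples per list by size of change at 4 h, and the 6 genes nearest each course by Euclidean distance. Alternatives were another pseudocount, a stricter minimum and no minimum, 1.5-fold and 3-fold rules, the untreated library of the other time, other scaling and the highest transcript alone. The steps were tested on simulated data.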

Additional observations from a re-analysis of the deposited data

Results flagged for a closer look

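Cdh1 and Lipg moved in opposite directions with IL-4 and IL-33 at 4 h, each with a counting interval that leaves out no difference on either side. The IL-33 change minus the IL-4 change was -1.57 for Cdh1 and -1.69 for Lipg. With IL-4, Cdh1 also lay below the untreated level at 1 h and above it at 4 h, past the rule at neither time. The 4 h change minus the 1 h change was 0.78. Its interval at 1 h, 0.768 to 0.999, ends just short of no difference, and the read numbers behind it are approximate. The genes were chosen as raised by IL-4, so the direction of their IL-4 changes at 4 h is not read as a result. The untreated library of 4 h stands in both comparisons of that time. With 1 library per group, these differences were not tested.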

How the results depend on the processing

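Of 284 values recomputed for the 10 genes, 268 kept their side of the rule, 10 fell below it and 6 passed it. Among the 268, 6 values that were below the rule changed sign, and no value past the rule did. With a 3-fold rule, 4 of the 10 genes were higher with IL-4 at 4 h, 2 with IL-33 at 4 h and 1 with both (0.369% and 2.15% of all genes passed it higher with IL-4 and IL-33). With a 1.5-fold rule, 2 were higher with IL-33 at 1 h (4.75% of all genes were). At 4 h Retnla moved to the genes higher with both and Cdh1 to those higher with IL-4 alone. Under that rule Cdh1 was also lower with IL-33, at 1 h (-0.65) and at 4 h (-0.95), where 2.77% and 7.31% of all genes were. For the list of other alternative-activation genes, the 1.5-fold rule gave 9 higher with IL-4 at 1 h, 20 with IL-4 at 4 h and 10 with IL-33 at 1 h. Of all genes, 0.828%, 1.51% and 4.75% were higher in that order. At 4 h that rule gave 1 lower with IL-4 (0.618% of all genes were) and 3 lower with IL-33 (7.31%). The 3-fold rule gave 1, 5 and 2 higher with IL-4 at 1 h, IL-4 at 4 h and IL-33 at 1 h. In that order, 0.329%, 0.369% and 1.42% of all genes were higher. Against the untreated library of the other time, 8 were higher with IL-4 at 1 h and 8 with IL-33 at 1 h, and 1 was lower with IL-4 and 2 with IL-33 at 4 h. With a pseudocount of 0.1, 1 was lower with IL-4 at 4 h. The share of all genes was not computed for the other untreated library or for this pseudocount. The cause was not tested. The untreated library of a time stands in both of its comparisons, so an error in it moves both. Depth limits Tcfec, Retnla and Tmem26 most, at an estimated 26, 54 and 54 reads in the untreated library of 4 h. No paired analysis was possible because each group has 1 library.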
